A study of Mus musculus with 8 samples.

Results

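The 8 genes described here are Cx3cr1, Tmem119, Olfml3, Gpr34, Fcrls, P2ry12, Siglech and Plxdc2. As a set they are named for the microglia-like macrophages of the endoneurium, the inner compartment of a peripheral nerve. Some of the 8 were also high in cell clusters led by genes of the outer nerve sheath (given at the end). They were chosen by name, and all 8 have a row among the 30406 genes shared by the 4 single-cell count matrices of the series. The cells were CD45+ CD11b+ leukocytes sorted from the sciatic nerve of male and female C57BL/6JolaHsd mice, a substrain known to lack the alpha-synuclein gene, and the labels name no transgene or knockout in any group. The injuries compared were partial sciatic nerve ligation (PSNL), in which part of the left nerve is tied off tightly, and nerve crush with forceps, each sampled at 1 week and at 15 weeks after surgery, with sham surgery, in which the nerve was exposed but not touched, at 1 week only. Antibodies against MHC class I carrying a hashtag barcode marked each sample, so that 1 library could hold several: sham female, PSNL female and PSNL male shared a library, sham male, crush female and crush male shared another, and each 15-week injury had a library of its own.

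The hashtags gave 13 samples: 1 female and 1 male each for sham, PSNL and crush at 1 week, 2 females and 2 males for PSNL at 15 weeks, and 2 females and 1 male for crush at 15 weeks. The sources do not say whether a hashtag stood for 1 mouse or a pool of mice, so that p-values measure the spread between these samples. After filtering, 6545 cells of 9133 barcodes were kept with 1 hashtag, from 64 cells (sham female) and 104 cells (sham male) to 1555 cells (crush male at 15 weeks), with 247765 to 15291150 UMIs (unique molecular identifiers, each a counted transcript) per sample. The pan-leukocyte transcript Ptprc, which encodes CD45, had group means of 630.2 to 899.6 CPM, and the sex-linked transcripts matched the labelled sex in all 13 samples. Although the 1-week sort was set to leave out Ly6G+ neutrophils, cells rich in the neutrophil transcripts S100a8 and S100a9 made up 28.0% and 14.1% of the 2 PSNL samples at 1 week, 1.56% to 9.62% of sham and crush samples at 1 week, and at most 0.411% at 15 weeks. A further set of cells, cluster 2 of the clustering described at the end, was led by Gm42418, a transcript that overlaps ribosomal RNA sequence, and by Lars2, AY036118 and mitochondrial genes, at a median of 3372 UMIs per cell. It held 45 of 64 and 47 of 104 sham cells, 12.97% and 8.25% of PSNL and 30.7% and 8.09% of crush cells at 1 week, and at most 1.64% of any sample at 15 weeks. Results of 1 week for the 8 genes and for shares of cells are therefore also given without it. For pairs of genes and for counts within the other gene lists they are not. The crush male of 15 weeks differed from the 2 females of its group by more (41.8 and 24.4 as chi-square per degree of freedom over gene counts) than they did from each other (8.85). The libraries shared 3 to 7 cell barcodes with others. The 2 times were separate batches by the labels, and at 1 week the injuries were in separate libraries, so that time and batch, and apart from the shams injury and library, cannot be told apart.

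Microglia are the resident macrophages of the central nervous system, and in the undisturbed state they express a set of surface receptors with which they sense neurons and damaged tissue. This homeostatic programme depends on TGF-beta and CSF1 receptor signalling and on transcription factors such as PU.1, and it is known to be lost when microglia respond to injury or disease. Macrophages inside peripheral nerves lie close to axons and share part of this programme, whereas macrophages of the epineurium, the outer sheath, are marked by genes such as Retnla, Clec10a and Cd163.

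The 8 genes lie at separate places in the genome and differ widely in length (mouse build GRCm38, coordinates over the whole gene from the GENCODE M21 annotation; all are protein coding). Cx3cr1 (ENSMUSG00000052336) encodes the receptor for fractalkine, a chemokine displayed by neurons, and spans 168 kb at chr9:119901616-120069879 on the minus strand. P2ry12 (ENSMUSG00000036353), an ADP receptor that directs microglial processes to damaged cells, spans 46.6 kb at chr3:59216272-59262871 on the minus strand. Gpr34 (ENSMUSG00000040229), a receptor for lysophosphatidylserine, spans 8.77 kb at chrX:13632089-13640858 on the plus strand. Fcrls (ENSMUSG00000015852), an Fc receptor-like scavenger molecule, spans 12.98 kb at chr3:87250758-87263738 on the minus strand, and Siglech (ENSMUSG00000051504), a sialic acid-binding lectin also known from plasmacytoid dendritic cells, spans 10.7 kb at chr7:55768178-55778925 on the plus strand. Tmem119 (ENSMUSG00000054675), a membrane protein widely used to label microglia, is the shortest at 6.79 kb, at chr5:113793729-113800516 on the minus strand. Plxdc2 (ENSMUSG00000026748), a plexin domain-containing membrane protein, is the longest at 399.5 kb, at chr2:16356304-16755839 on the plus strand. Olfml3 (ENSMUSG00000027848) encodes a secreted olfactomedin-like glycoprotein and spans 15.8 kb at chr3:103722222-103738001 on the minus strand.

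Of the 8 genes, 5 had a promoter in the RefSeq table (build GRCm38.p6, 250 bases before the transcription start, 5′ to 3′ along the gene's strand), and Gpr34, Tmem119 and Plxdc2 did not. Shown are Fcrls, in whose window a searched motif was found, and the surface receptors Siglech, P2ry12 and Cx3cr1, in which none was. Capitals mark GAGGAA, the core of the motif bound by PU.1. The sequences are Fcrls (chr3:87263525-87263774, minus strand), Siglech (chr7:55767934-55768183, plus strand), P2ry12 (chr3:59262986-59263235, minus strand) and Cx3cr1 (chr9:120068297-120068546, minus strand).
Fcrls: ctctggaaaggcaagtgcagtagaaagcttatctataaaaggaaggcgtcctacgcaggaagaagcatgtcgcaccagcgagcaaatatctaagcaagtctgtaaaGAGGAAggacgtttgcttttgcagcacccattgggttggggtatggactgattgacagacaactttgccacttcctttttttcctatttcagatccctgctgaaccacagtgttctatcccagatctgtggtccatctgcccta
Siglech: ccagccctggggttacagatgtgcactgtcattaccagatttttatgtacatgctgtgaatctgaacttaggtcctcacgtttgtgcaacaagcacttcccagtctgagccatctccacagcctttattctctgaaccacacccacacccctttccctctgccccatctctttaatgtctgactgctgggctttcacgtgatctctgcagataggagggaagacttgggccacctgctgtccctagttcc
P2ry12: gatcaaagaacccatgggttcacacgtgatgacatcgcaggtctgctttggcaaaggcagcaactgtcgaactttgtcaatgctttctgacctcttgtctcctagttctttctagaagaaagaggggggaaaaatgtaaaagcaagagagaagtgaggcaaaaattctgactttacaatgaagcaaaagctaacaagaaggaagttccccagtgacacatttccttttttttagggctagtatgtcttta
Cx3cr1: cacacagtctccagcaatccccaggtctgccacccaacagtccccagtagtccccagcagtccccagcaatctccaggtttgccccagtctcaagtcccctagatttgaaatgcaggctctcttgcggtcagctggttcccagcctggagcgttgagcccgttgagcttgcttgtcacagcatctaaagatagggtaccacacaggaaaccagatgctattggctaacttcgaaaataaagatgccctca
Searched on both strands, GAGGAA lay in the Fcrls window, beginning 144 bases before the start, and in none of the other 4 windows (Olfml3 among them), while 23.3% of all 32851 promoters of this length held it. The interferon regulatory factor motif (GAAA, any 2 bases, GAAA) was in none of the 5, against 2.98% of all promoters. A match is a string of letters and not a measured binding site.

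Levels are given as CPM, a gene's UMIs scaled to a common total per sample after TMM normalization, and are compared for 1 gene between samples, not between genes. In bulk sums of this kind, fewer cells expressing a gene and less RNA per cell cannot be told apart. Cx3cr1 was at 223 and 97.4 CPM in the female and male sham samples, 184 and 128 in PSNL and 302 and 433 in crush at 1 week. At 15 weeks it was at 719, 642, 672 and 651 CPM in PSNL and 397, 647 and 583 in crush. Sham and PSNL samples overlapped, both lay below every crush sample of 1 week, and the 4 PSNL samples of 15 weeks lay close together.

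P2ry12 was at 48.1 and 14.2 CPM in sham, 10.4 and 6.53 in PSNL and 24.2 and 30.9 in crush at 1 week, and at 151, 128, 130.4 and 147 CPM in PSNL and 90.8, 156 and 87.8 in crush at 15 weeks. All 7 samples of 15 weeks lay above all 6 of 1 week. Gpr34 was at 188 and 37.2 CPM in sham, 15.2 and 9.19 in PSNL and 56.7 and 64.0 in crush at 1 week, and at 228, 177, 220.4 and 266 CPM in PSNL and 178, 259 and 172 in crush at 15 weeks. The 2 sham samples of Gpr34 stood far apart, and the female one reached the range of 15 weeks.

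Fcrls was at 315 and 282 CPM in sham, 63.9 and 30.7 in PSNL and 278 and 241 in crush at 1 week. At 15 weeks it was at 462, 386, 335 and 256 CPM in PSNL and 426, 388 and 210 in crush. The 2 PSNL samples of 1 week therefore lay below every other sample, and sham and crush samples of 1 week lay within the range of 15 weeks. Siglech showed the same gap after PSNL, at 43.7 and 24.8 CPM in sham, 3.32 and 2.42 in PSNL (7 and 10 UMIs) and 23.2 and 27.9 in crush at 1 week. At 15 weeks it was at 61.8, 45.9, 38.5 and 34.2 CPM in PSNL and 16.5, 61.0 and 19.6 in crush, so that the crush samples spread most widely.

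Plxdc2 was at 65.6 and 62.0 CPM in sham, 9.47 and 8.46 in PSNL and 85.8 and 67.0 in crush at 1 week, and at 266, 345, 300.5 and 168 CPM in PSNL and 255, 335 and 213 in crush at 15 weeks. The 3 groups of 1 week did not overlap, and every sample of 15 weeks lay above them. Olfml3 was low in sham, at 4.37 and 7.09 CPM (1 and 4 UMIs), and higher in PSNL at 14.2 and 19.3 CPM and in crush at 24.6 and 57.2 CPM. At 15 weeks it was at 54.0, 35.3, 43.7 and 58.5 CPM in PSNL and 41.8, 53.7 and 114 in crush. Its order, with sham lowest, differed from that of the surface receptors.

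Tmem119 had no UMI in either sham sample. It was at 21.3 and 26.8 CPM in PSNL (45 and 111 UMIs) and 29.6 and 53.0 CPM in crush (60 and 173 UMIs) at 1 week, and at 25.7, 24.97, 14.3 and 19.0 CPM in PSNL and 6.28, 12.7 and 13.8 CPM in crush at 15 weeks. It was the one gene of the 8 with its highest group at 1 week after crush and its 2 injuries apart at 15 weeks.

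**Figure D1:**
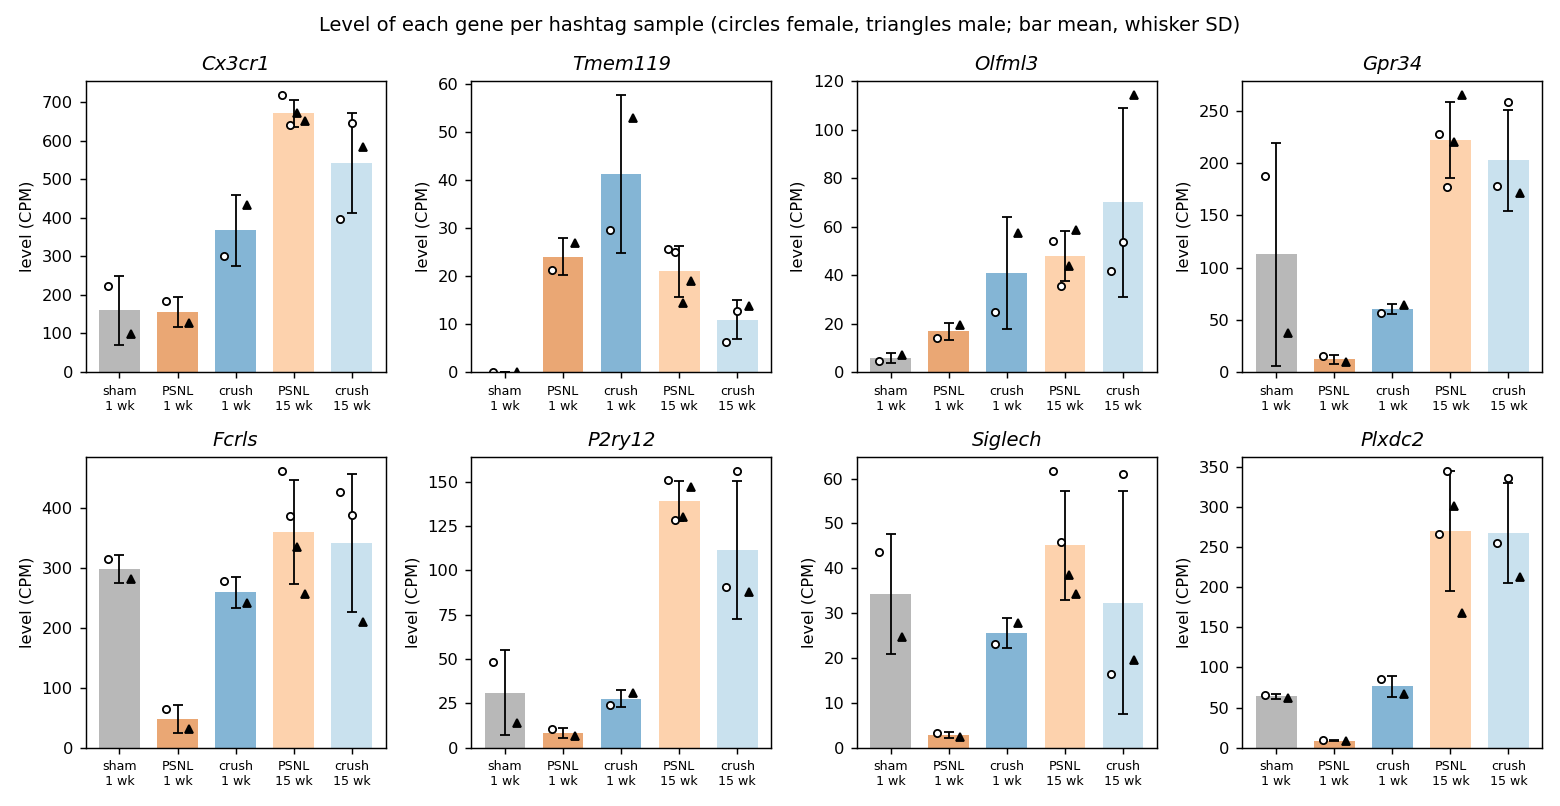
Level of each of the 8 genes in the 13 hashtag samples, in TMM-scaled CPM (y axis, from 0, a separate scale for each gene) for the 5 groups (x axis); circles are female and triangles male samples, the bar is the group mean and the whisker the SD. PSNL at 1 week is the lowest group for Gpr34, Fcrls, P2ry12, Siglech and Plxdc2, and Tmem119 is at 0 in both sham samples.

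Ordered by group mean, PSNL at 1 week was lowest for 6 of the 8 genes. For Fcrls the means were 47.3 ± 23.5 CPM in PSNL (SD, n = 2), 259 ± 25.7 in crush (n = 2) and 298 ± 23.5 in sham (n = 2) at 1 week, then 341 ± 115 in crush (n = 3) and 360 ± 86.7 in PSNL (n = 4) at 15 weeks, and the last 3 groups overlapped in range with their neighbours. For Plxdc2 they were 8.97 ± 0.716 CPM in PSNL, 63.8 ± 2.55 in sham and 76.4 ± 13.3 in crush at 1 week, followed without a gap between them by crush (268 ± 62.3) and PSNL (269.8 ± 75.2) at 15 weeks. For Tmem119 the order was sham at 0, crush at 15 weeks (10.9 ± 4.06 CPM), PSNL at 15 weeks (21.0 ± 5.35), PSNL at 1 week (24.1 ± 3.90) and crush at 1 week (41.3 ± 16.5), and of these neighbours only the 2 PSNL groups overlapped. The summed level of the 8 genes was 524 to 888 CPM in sham, 232 to 322 in PSNL and 823 to 974 in crush at 1 week, and 1600 to 1968 in PSNL and 1410 to 1912 in crush at 15 weeks.

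To ask which of the genes ligation changed after 1 week, PSNL was compared with sham. Plxdc2, Fcrls, Gpr34 and Siglech were lower after PSNL and Tmem119 was higher, which is 5 of 8 genes against 5.35% of the 11535 genes tested (2.05% lower and 3.29% higher). Plxdc2 fell by 2.83 on the log2 scale (SE 0.416, adjusted p = 0.00351, edgeR's quasi-likelihood test with Benjamini-Hochberg adjustment over all genes tested), Fcrls by 2.67 (SE 0.411, adjusted p = 0.00423), Gpr34 by 3.05 (SE 0.577, adjusted p = 0.0108) and Siglech by 3.50 (SE 0.872, adjusted p = 0.0375). Tmem119 rose at least 6.60-fold (adjusted p = 0.0252), from the pooled 24.97 CPM in PSNL and the 3.78 CPM that 3 UMIs over both sham samples would give, but its share of cells was not told apart from background (given with the cell shares). P2ry12 (log2 difference -1.65, SE 0.569, adjusted p = 0.114), Olfml3 (1.44, SE 0.972, adjusted p = 0.434) and Cx3cr1 (0.04, SE 0.3503, adjusted p = 0.996) did not pass. The median log2 difference was -2.16 over the 8 genes and 0.10 over all genes tested. The neutrophil marker list summed to 5787 to 16490 CPM in PSNL and 538 to 3415 CPM in sham, and without the cells rich in S100a8 and S100a9 the same 5 genes passed, at -2.70 for Plxdc2 in PSNL against sham at 1 week and -2.76 for Fcrls in PSNL against sham at 1 week. The sham groups were small, and leaving out 1 sample brought the count to 2 (without sham female or PSNL male) or 3 (without sham male), while Plxdc2 and Fcrls passed in all 26 alternatives run. Without the Gm42418-led cluster, which left 19 and 57 sham cells, these were the 2 genes that passed, at -3.83 (adjusted p = 0.00290) for Plxdc2 in PSNL against sham at 1 week and -3.86 (adjusted p = 0.00166) for Fcrls in PSNL against sham at 1 week. That cluster held 60 of the 64 sham UMIs of Gpr34, 22 of 24 of Siglech and 16 of 19 of P2ry12, against 105 of 231 of Fcrls and 12 of 50 of Plxdc2. Gpr34 in PSNL against sham at 1 week was then at -0.64 (adjusted p = 0.859), Siglech at -0.97 (adjusted p = 0.877) and Tmem119, with no sham UMI in either part, at an adjusted p of 0.304.

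The same question for crush gave no change that passed the test. None of the 8 genes was called, against 0.173% of all genes (0.0694% higher and 0.104% lower, 20 genes, with 1277 at an unadjusted p under 0.05, and 122 called by DESeq2, which called 1 of the 8). Tmem119 came nearest, at least 11.6-fold higher than the sham limit (adjusted p = 0.0553). Cx3cr1 had a log2 difference of 1.27 (SE 0.35, adjusted p = 0.184) and Olfml3 of 2.73 (SE 0.880, adjusted p = 0.252). For the remaining 5 the differences ran from -0.69 (Gpr34, SE 0.516, adjusted p = 0.673) to 0.26 (Plxdc2, SE 0.361, adjusted p = 0.853), with standard errors that leave room for changes of either sign. The median over the 8 genes was 0.19, against 0.09 for all genes tested.

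Compared directly at 1 week, PSNL nerves had lower levels than crush nerves for 6 of the 8 genes, against 12.2% of all genes tested (5.68% lower and 6.57% higher). Plxdc2 fell by 3.09 on the log2 scale (SE 0.355, adjusted p = 0.000454), Siglech by 3.20 (SE 0.692, adjusted p = 0.0119) and Fcrls by 2.48 (SE 0.393, adjusted p = 0.00232). Gpr34 fell by 2.36 (SE 0.503, adjusted p = 0.0112), P2ry12 by 1.77 (SE 0.405, adjusted p = 0.0155) and Cx3cr1 by 1.24 (SE 0.322, adjusted p = 0.0262). Olfml3 (-1.29, SE 0.493, adjusted p = 0.111) and Tmem119 (-0.78, SE 0.385, adjusted p = 0.213) did not pass. The median was -2.07 for the 8 genes and -0.02 for all genes. Without cells rich in S100a8 and S100a9 the same 6 passed, at -2.96 for Plxdc2 in PSNL against crush at 1 week and -2.54 for Fcrls in PSNL against crush at 1 week. Without the Gm42418-led cluster 4 passed (Plxdc2, Fcrls, Gpr34 and Siglech), with adjusted p-values of 0.131 for Cx3cr1 in PSNL against crush at 1 week and 0.0689 for P2ry12 in PSNL against crush at 1 week. With the library as a term in the fit, in which the shams link the 2 libraries, none of the 8 was called. Of all 9755 genes tested there 10 were called, against 1413 of 11535 without the term. The loss of these 6 calls thus cannot be told apart from a loss over all genes. That link rests on 1 sham sample per library, female beside PSNL and male beside crush, so that it also mixes library with sex. In all 26 alternatives run the 8 genes stayed lower in PSNL, at -3.74 to -2.92 for Plxdc2 and -1.13 to -0.28 for Tmem119. How many passed also changed with 1 sample left out (given at the end).

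At 15 weeks the 2 injuries were not told apart by the test. None of the 8 genes was called, against 0% of all genes (no gene passed in edgeR, 545 had an unadjusted p under 0.05, and DESeq2 called 8 genes). Tmem119 had the largest difference of the 8, 0.91 on the log2 scale (SE 0.308, unadjusted p = 0.0125, adjusted p = 0.975), and its 4 PSNL samples (14.3 to 25.7 CPM) all lay above the 3 crush samples (6.28 to 13.8 CPM). Olfml3 was -0.57 (SE 0.335), Siglech 0.54 (SE 0.382), P2ry12 0.33 (SE 0.240) and Cx3cr1 0.31 (SE 0.241), with adjusted p-values of 0.975 to 0.978. Gpr34 (0.14, SE 0.317), Fcrls (0.08, SE 0.276) and Plxdc2 (0.02, SE 0.217) had adjusted p-values of 1. The median of the 8 was 0.22, against -0.01 for all genes.

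Between 1 and 15 weeks after PSNL, 7 of the 8 genes were higher, at a time when 56% of all genes were called (29.2% higher). Plxdc2 rose by 4.92 on the log2 scale (SE 0.349, adjusted p = 3.88e-07), Gpr34 by 4.24 (SE 0.487, adjusted p = 1.55e-05) and P2ry12 by 4.09 (SE 0.374, adjusted p = 2.52e-06). Siglech rose by 4.01 (SE 0.632, adjusted p = 0.000182), Fcrls by 2.95 (SE 0.375, adjusted p = 3.49e-05), Cx3cr1 by 2.11 (SE 0.304, adjusted p = 9.53e-05) and Olfml3 by 1.48 (SE 0.442, adjusted p = 0.0124). Tmem119 did not pass (-0.22, SE 0.339, adjusted p = 0.601).

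After crush, 4 of the 8 genes were called over the same interval, against 42.3% of all genes (23.9% higher and 18.4% lower), so that the count was near the background. P2ry12 rose by 1.99 (SE 0.325, adjusted p = 0.000454), Plxdc2 by 1.81 (SE 0.284, adjusted p = 0.000339) and Gpr34 by 1.74 (SE 0.414, adjusted p = 0.00512), whereas Tmem119 fell by 1.91 (SE 0.35, adjusted p = 0.00122). Cx3cr1 (0.56, adjusted p = 0.140), Olfml3 (0.77, adjusted p = 0.158), Fcrls (0.39, adjusted p = 0.364) and Siglech (0.26, adjusted p = 0.690) did not pass. Without the Gm42418-led cluster Tmem119 in crush at 15 weeks against 1 week was at -1.53 (adjusted p = 0.0578) and the other 3 still passed. The medians of the 8 genes were 3.48 after PSNL and 0.66 after crush, and those of all genes 0.03 and 0.01.

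The difference between the times moved with gene length across the whole table. Genes spanning 5 to 20 kb had a median log2 difference of -0.39 after PSNL and -0.30 after crush, genes of 20 to 50 kb had 0.04 and -0.01, genes of 100 to 200 kb had 1.23 and 1.05, and genes over 200 kb had 2.45 and 2.12. Plxdc2, at over 200 kb, lay above the upper quartile of its length class after PSNL (3.96) and inside the quartiles after crush (1.35 to 3.45). Cx3cr1 was above its class quartiles after PSNL (0.41 to 2.05) and inside them after crush (0.36 to 1.94). Gpr34 and P2ry12 lay above the upper quartiles of their classes after both injuries (0.25 and 0.22 at 5 to 20 kb, 0.77 and 0.61 at 20 to 50 kb), and Tmem119 after crush lay below the lower quartile of its class (-0.69). The 2 batches were also made with different Cell Ranger versions by the matrix headers, and Gm42418 took 7.18% to 18.4% of UMIs at 1 week and 1.33% to 2.34% at 15 weeks. The part of batch, version or gene length in the time differences was not tested.

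**Figure D2:**
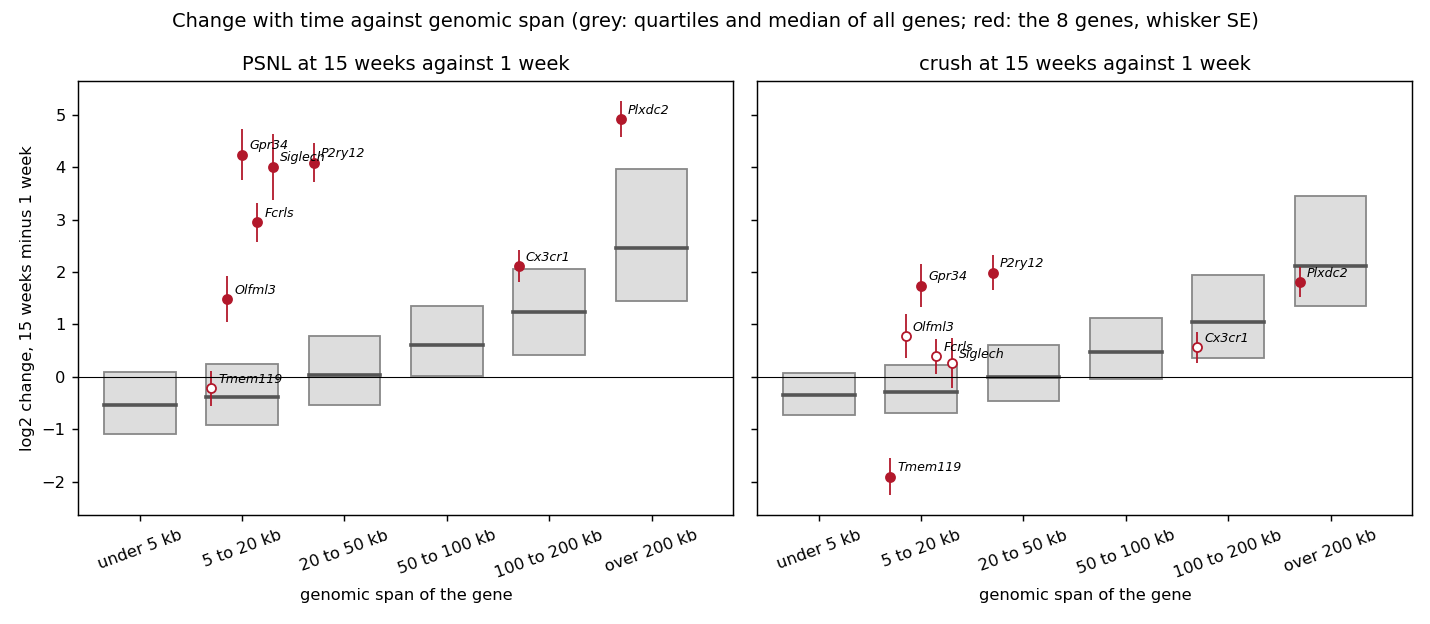
Log2 difference between 15 weeks and 1 week (y axis) after PSNL and after crush by genomic span of the gene in kb (x axis, classes); grey shows the median and quartiles of all genes tested, red points the 8 genes with SE, filled where the adjusted p was below 0.05. The grey medians climb from -0.54 to 2.45 after PSNL and from -0.34 to 2.12 after crush.

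Whether the PSNL minus crush difference itself changed with time was tested as an interaction, in which a shift common to both injuries between the batches cancels. It was higher at 15 weeks for 6 of the 8 genes, against 7.79% of all genes tested (3.44% higher and 4.35% lower). The change was 3.75 on the log2 scale for Siglech (SE 0.794, adjusted p = 0.0158), 3.11 for Plxdc2 (SE 0.416, adjusted p = 0.00228) and 2.56 for Fcrls (SE 0.477, adjusted p = 0.00921). It was 2.50 for Gpr34 (SE 0.595, adjusted p = 0.0258), 2.10 for P2ry12 (SE 0.472, adjusted p = 0.0204) and 1.55 for Cx3cr1 (SE 0.402, adjusted p = 0.0367). Tmem119 (1.69, SE 0.493, adjusted p = 0.0584) and Olfml3 (0.71, SE 0.595, adjusted p = 0.503) did not pass. Over classes of gene length the median interaction ran from -0.21 to 0.29. Without the Gm42418-led cluster 4 genes were called (not Cx3cr1, adjusted p = 0.155 for Cx3cr1 in the PSNL minus crush difference, 15 weeks minus 1 week, nor P2ry12, adjusted p = 0.0797 for P2ry12 in the PSNL minus crush difference, 15 weeks minus 1 week). Without PSNL male of 1 week only Plxdc2 was called, without crush male of 1 week 2 genes and without PSNL female of 1 week 3, and Plxdc2 passed in all 25 alternatives run.

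The other genes of the homeostatic programme were read from the same tests. Of 20 further homeostatic microglia genes, 16 could be tested. After PSNL at 1 week 4 were lower and 2 higher than in sham (2.05% and 3.29% of all genes), with a median log2 difference of -0.16. Without the Gm42418-led cluster 245 genes of the whole table were called in PSNL against sham, against 617 with it, and no list counts are given there. The tetraspanin Cd81 had group means of 315 CPM in sham and 22.6 in PSNL (log2 -3.80, SE 0.356, adjusted p = 0.000315), and Mef2c, a transcription factor of microglia, of 461 and 93.1 CPM (-2.28, SE 0.373, adjusted p = 0.00576). The secreted ribonuclease Rnase4 was lower as well (-1.09, SE 0.2498, adjusted p = 0.0267). Between PSNL and crush at 1 week 6 were lower and 1 higher after PSNL (5.68% and 6.57% of all genes), among them Cd81 (-2.20, SE 0.334, adjusted p = 0.00190) and Rnase4 (-1.03, SE 0.220, adjusted p = 0.0113). At 15 weeks none passed. From 1 to 15 weeks 10 were higher and 4 lower after PSNL, against 56% of all genes called, and 6 higher and 2 lower after crush, against 42.3% called, so that the share after crush was near the background.

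Disease-associated microglia genes are known to be taken up as the homeostatic set is lost. Of 17 tested in PSNL, 6 were higher and 1 lower than in sham (median 1.39), against 3.29% and 2.05% of all genes, and none passed after crush. The secreted phosphoprotein Spp1 had means of 77.9 CPM in sham and 8113 in PSNL (6.69, SE 0.915, adjusted p = 0.00251), and the tetraspanin Cd9 of 190 and 1009 CPM (2.37, SE 0.443, adjusted p = 0.0103). Of 12 genes for signals that maintain microglia, 1 was higher and 1 lower in PSNL than in sham and 2 each between PSNL and crush. The TGF-beta receptor Tgfbr1 was at 54.4 CPM in PSNL and 199 in crush at 1 week (-1.87, SE 0.336, adjusted p = 0.00464), and Tgfbr2 at 46.5 and 95.6 CPM (-1.05, SE 0.217, adjusted p = 0.00998). Of 14 epineurial macrophage genes, 7 were lower than in sham after PSNL (2.05% of all genes) and 5 after crush (0.104% of all genes), with none higher. Their summed levels were 4579 to 10601 CPM in sham against 1556 to 4542 CPM over the 4 injured samples. No gene of the whole table was called in crush against sham without the Gm42418-led cluster or with the library as a term, so the 5 calls did not hold there. Without that cluster 57 genes of the whole table were lower in PSNL than in sham, against 237 with it.

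Levels were then read cell by cell. Cells were thinned to 2000 UMIs each, leaving out shallower cells (10 to 149 per sample), so that depth did not set how many of the genes were found. At least 1 of the 8 was found in 61.7% and 41.9% of sham cells, 19.0% and 16.3% of PSNL cells and 49.5% and 51.9% of crush cells at 1 week, and in 84.9% to 89.9% (PSNL) and 79.5% to 91.5% (crush) of cells at 15 weeks. At least 3 were found in 10.6% and 9.30% of sham cells, 1.27% and 1.66% of PSNL cells and 10.9% and 13.7% of crush cells at 1 week. At 15 weeks the shares were 42.2%, 40.7%, 37.2% and 35.1% in PSNL and 28.9%, 44.2% and 28.8% in crush. In these values the 3 groups of 1 week did not overlap, but 2 samples against 2 give an exact permutation p of at least 0.33 (two-sided), which each pair reached. Sham and crush did overlap with hashtags called by HTODemux (8.99% and 9.80% against 9.57% and 12.8%) and after thinning to 1000 UMIs (0.99% and 4.76% against 3.67% and 5.90%), whereas PSNL stayed below both in each. Thinning to 1000 UMIs lowered the group means, from 9.97% to 2.88% in sham, 1.46% to 0.891% in PSNL and 12.3% to 4.79% in crush at 1 week, and from 38.8% to 15.4% in PSNL and 34.0% to 13.05% in crush at 15 weeks. At 15 weeks the injuries overlapped, and the mean difference of 4.85 percentage points had an exact permutation p of 0.4 (two-sided; smallest possible 0.0571). No cell held more than 7 of the 8 genes.

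At 1 week the cells with at least 3 of the genes lay largely in the Gm42418-led cluster. It held all 13 such sham cells, 16 of the 17 PSNL cells, and 28 of 31 and 10 of 68 in crush female and male, but 2 of 617 in PSNL and 4 of 719 in crush at 15 weeks. Outside it there were 0 of 16 and 0 of 50 sham cells, which allows shares of up to 18.8% and 6.00%, 1 of 344 and 0 of 673 PSNL cells, and 3 of 195 (1.54%) and 58 of 456 (12.7%) crush cells. A difference between sham and PSNL in this share was thus not detectable outside the cluster at this depth. Median mitochondrial shares in the cluster were 3.53% to 5.58% of UMIs over the 6 samples of 1 week, against 1.69% to 3.12% outside it. Of the crush cells of 1 week with at least 3 genes, 52 were in cluster 9, led by interferon-responsive genes. That cluster held 149 cells of crush male and 1 of crush female. The crush share outside the Gm42418-led cluster thus rested mostly on cluster 9 in 1 sample.

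**Figure D3:**
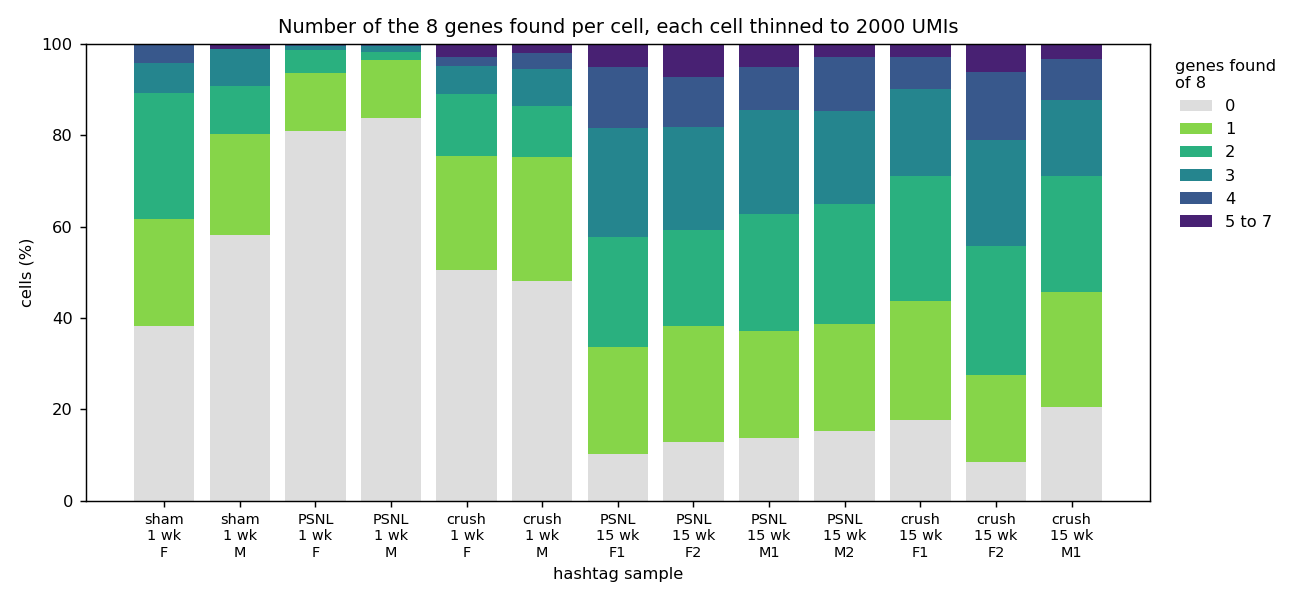
Share of cells (y axis, percent) in each hashtag sample (x axis) by how many of the 8 genes had a UMI, after thinning each cell to 2000 UMIs. Cells with 3 or more genes make up 1.27% and 1.66% of the 2 PSNL samples of 1 week and 28.8% to 44.2% of the 7 samples of 15 weeks.

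Gene by gene, Fcrls was found in 34.0% and 29.1% of sham cells, 3.30% and 3.31% of PSNL cells and 24.2% and 19.7% of crush cells at 1 week, and in 28.8% to 49.5% of cells at 15 weeks. Cx3cr1 was found in 29.8% and 15.1% of sham, 14.2% and 10.8% of PSNL and 28.1% and 32.6% of crush cells at 1 week, and in 45.4% to 61.6% at 15 weeks. Tmem119 was found in 0 of 47 and 0 of 86 sham cells, which allows shares of up to 6.38% and 3.49%, and in 3.05% and 3.04% of PSNL cells and 4.56% and 7.65% of crush cells. The PSNL shares of Tmem119 thus lay under the limit of each sham sample taken alone. A limit over both sham samples together would be lower and was not taken, so these limits do not decide whether sham and PSNL shares differed. In cells rich in S100a8 and S100a9, which as neutrophils should lack these genes, the 1-week shares over 140 cells (median 2546 UMIs) were 7.14% for Cx3cr1, 2.86% for Tmem119, 2.86% for Fcrls and 0.714% for Gpr34 and Plxdc2. In the other 1893 cells of 1 week (median 5768 UMIs) they were 20.8%, 4.28%, 12.7%, 6.29% and 5.28%. The Tmem119 and Fcrls shares after PSNL were close to those of the neutrophil-like cells, which rest on 140 cells, and by share were not told apart from background. The limits given for these shares cover counting error only. Mean levels in cluster 4, mostly PSNL at 1 week, were 22.2 CPM for Tmem119 and 9.71 CPM for Fcrls. In cluster 8, led by S100a9 and S100a8, they were 5.07 and 13.5 CPM. The source of the Tmem119 level was not tested.

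The genes were found together in single cells more often than their separate shares within a sample would give. For each pair, the number of cells with both was divided by the number expected if the 2 were found independently within each sample, with no test. All cells of a sample were counted, neutrophil-like and dendritic cells among them, so that the mix of cell types enters these ratios. Its part was not tested, and no ratio was taken within macrophages, for other pairs of genes or without the Gm42418-led cluster. At 1 week 25 of 28 pairs were above 1 (median ratio 2.31), led by P2ry12 with Plxdc2 (3.27), Gpr34 with P2ry12 (3.21), Olfml3 with Plxdc2 (3.18) and Tmem119 with Olfml3 (3.11). The 3 pairs below 1 were of Siglech with Olfml3 (0.357, from 1 cell with both), Tmem119 (0.70, 2 cells) and Gpr34 (0.97, 6 cells). With hashtags called by HTODemux these ratios were 1.69, 0.856 and 1.70, so that at these counts no order is read from them. Siglech was above 1 with Plxdc2 (2.03, 10 cells) and Cx3cr1 (1.496, 23 cells). At 15 weeks 26 of 28 pairs were above 1 but nearer to it (median 1.23), led by Tmem119 with Olfml3 (1.77) and P2ry12 with Siglech (1.68), and the pairs below 1 were Tmem119 with P2ry12 (0.82) and Fcrls with Plxdc2 (0.99). Which pairs lay below 1 changed with the rule: Tmem119 with P2ry12 was at 1.30 with HTODemux and 1.53 thinned to 1000 UMIs, Fcrls with Plxdc2 at 0.996 and 0.868, and Olfml3 with Siglech, at 1.30 here, at 0.632 with HTODemux. Thinned to 1000 UMIs 25 of 28 pairs were above 1 at 1 week and 22 of 28 at 15 weeks. A ratio has more room to exceed 1 where each gene is found in few cells, as at 1 week.

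**Figure D4:**
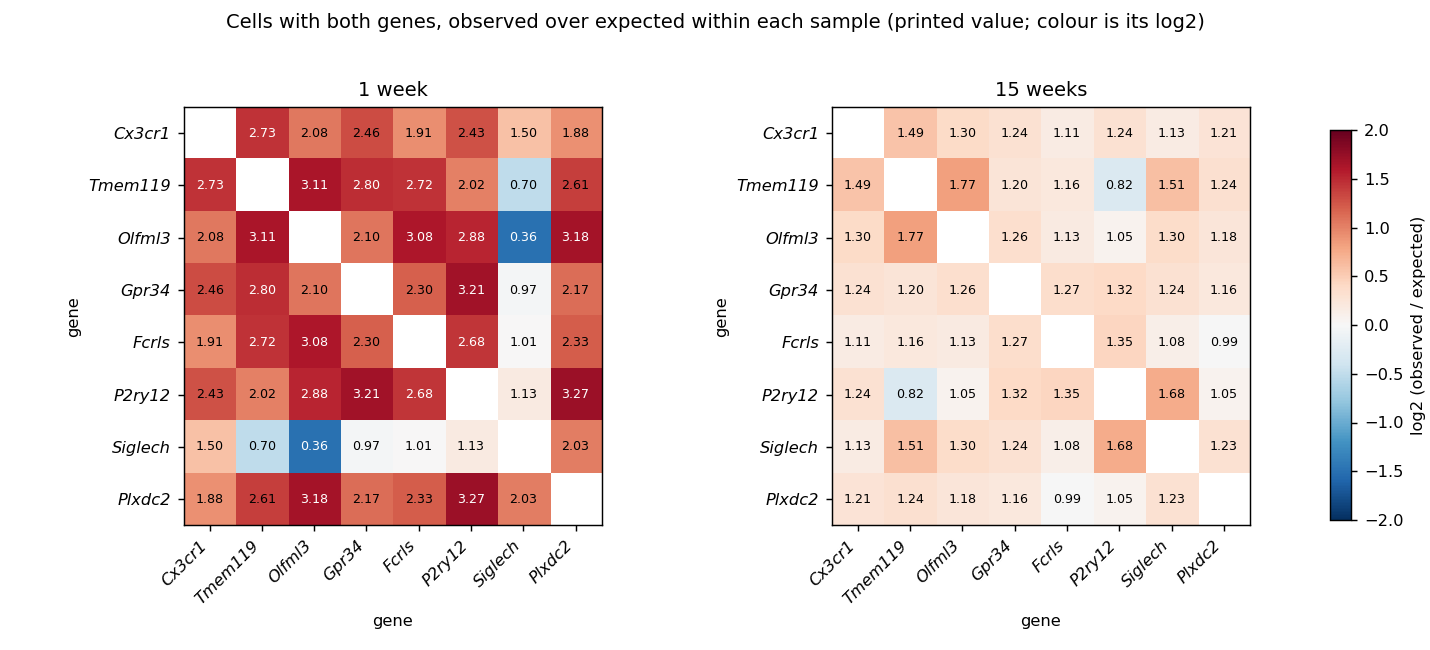
Cells with both genes of a pair divided by the number expected from each gene's share within a sample, at 1 week and at 15 weeks (rows and columns are the 8 genes, colour is log2 of the printed ratio), in cells thinned to 2000 UMIs. Ratios run from 0.357 to 3.27 at 1 week and from 0.822 to 1.77 at 15 weeks.

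What else the cells expressed was asked by summing, within each sample, cells with at least 3 of the 8 genes and cells with none, and comparing the sums in edgeR with the sample as a block. The 8 genes chose the classes and were left out. Samples with 10 cells in each class entered, 3 at 1 week (PSNL male and both crush samples, so that sham is not represented) and 7 at 15 weeks. At 1 week 11.8% of 5602 genes were called (4.16% higher and 7.66% lower), and at 15 weeks 18.9% (7.6% higher and 11.3% lower). Of the genes called higher, 150 were shared, which is 64.4% of those of 1 week and 35.2% of those of 15 weeks. The classes differ in the kinds of cell they hold, so the comparison was repeated within cells with a UMI of the macrophage genes Csf1r or Adgre1, where 219 genes were called at 1 week and 356 at 15 weeks. At 1 week the class with 3 or more genes was, in PSNL male and crush female, almost wholly in the Gm42418-led cluster, and without that cluster crush male alone was left at 1 week, with 254 genes called on the spread of the 15-week samples, and 1245 were called at 15 weeks. A result of 1 week in these classes cannot be told apart from that cluster in those 2 samples.

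Cells with 3 or more of the genes had higher levels of most other homeostatic microglia genes, with 10 of 14 tested higher and 1 lower at 1 week, and 12 higher and 1 lower at 15 weeks. Rnase4 was at 467 CPM in these cells and 33.4 CPM in cells with none at 1 week (log2 3.80, SE 0.343, adjusted p = 7.48e-12), and at 288 and 92.4 CPM at 15 weeks (1.60, SE 0.200, adjusted p = 1.49e-08). Csf1r, the receptor on which microglia depend for survival, was higher by 2.62 at 1 week (SE 0.267, adjusted p = 1.97e-10) and 1.19 at 15 weeks (SE 0.1603, adjusted p = 9.63e-08), and P2ry13, a further purine receptor, by 3.63 (SE 0.816, adjusted p = 0.00118) and 1.87 (SE 0.404, adjusted p = 0.000414). The selectin ligand Selplg was the one that was lower, by -0.96 at 1 week (SE 0.313, adjusted p = 0.0333) and -0.64 at 15 weeks (SE 0.188, adjusted p = 0.0110). Within cells with a UMI of Csf1r or Adgre1, 5 of 12 at 1 week and 7 of 12 at 15 weeks were higher and none was lower.

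The TGF-beta receptors Tgfbr1 (469 and 85.2 CPM at 1 week, 2.45, SE 0.339, adjusted p = 3.93e-07) and Tgfbr2 (303 and 52.2 CPM, 2.50, SE 0.345, adjusted p = 3.92e-07) were higher in the cells with 3 or more of the genes, and were also called at 15 weeks, at 1.53 and 1.32. Of the disease-associated genes, 4 were higher and 4 lower of 15 tested at 1 week, and 2 higher and 6 lower at 15 weeks. The apolipoprotein gene Apoe was higher (49920 and 4656 CPM at 1 week, 3.38, SE 0.252, adjusted p = 2.20e-14; 1.16 at 15 weeks), whereas the dendritic cell integrin Itgax (-2.07, adjusted p = 0.00451; -3.38 at 15 weeks), the galectin Lgals3 (-1.75, adjusted p = 2.89e-06; -2.26 at 15 weeks) and the lipase Lpl (-2.63, adjusted p = 4.10e-05; -1.48 at 15 weeks) were lower. Epineurial genes were split, with 4 higher and 2 lower of 13 at 1 week and 3 higher and 4 lower at 15 weeks. Retnla (-7.17 and -2.21) and Clec10a (-2.63 and -1.38) were lower. Retnla varied between samples, at 867 ± 1309 CPM (SD, n = 3) in cells with none at 1 week. It was higher in the cells with 3 or more of the genes in 1 of 3 samples at 1 week and 2 of 7 at 15 weeks. Cd163 was higher at 1 week (2.74, adjusted p = 0.00026) and not called at 15 weeks (0.48, adjusted p = 0.159), and Gas6 was higher at both (2.71 and 0.56). At 1 week both stayed higher within cells with a UMI of Csf1r or Adgre1 (Cd163 2.26, adjusted p = 0.0418, and Gas6 1.79, adjusted p = 0.0437). The mannose receptor Mrc1 was higher over all cells (1.77 and 0.85) but was not called within cells with a UMI of Csf1r or Adgre1 (0.97, adjusted p = 0.0854; 0.40, adjusted p = 0.178). In those cells 2 epineurial genes were higher and 2 lower of 12 at 1 week and 6 lower at 15 weeks, and of 14 disease-associated genes 2 were higher and 3 lower, then 1 higher and 5 lower. Of markers of other cells, 5 of 6 neutrophil genes were lower at 1 week and 4 at 15 weeks, and 4 and then 5 of 5 conventional dendritic cell genes were lower. Of the plasmacytoid dendritic cell list only Bst2 and Tcf4 could be tested. Tcf4 was higher at 1 week and both were higher at 15 weeks. Within cells with a UMI of Csf1r or Adgre1 only Bst2 at 15 weeks was called (1.06, adjusted p = 0.00344 in edgeR). The list's other markers, Ccr9 and Spib among them, were not tested.

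**Figure D5:**
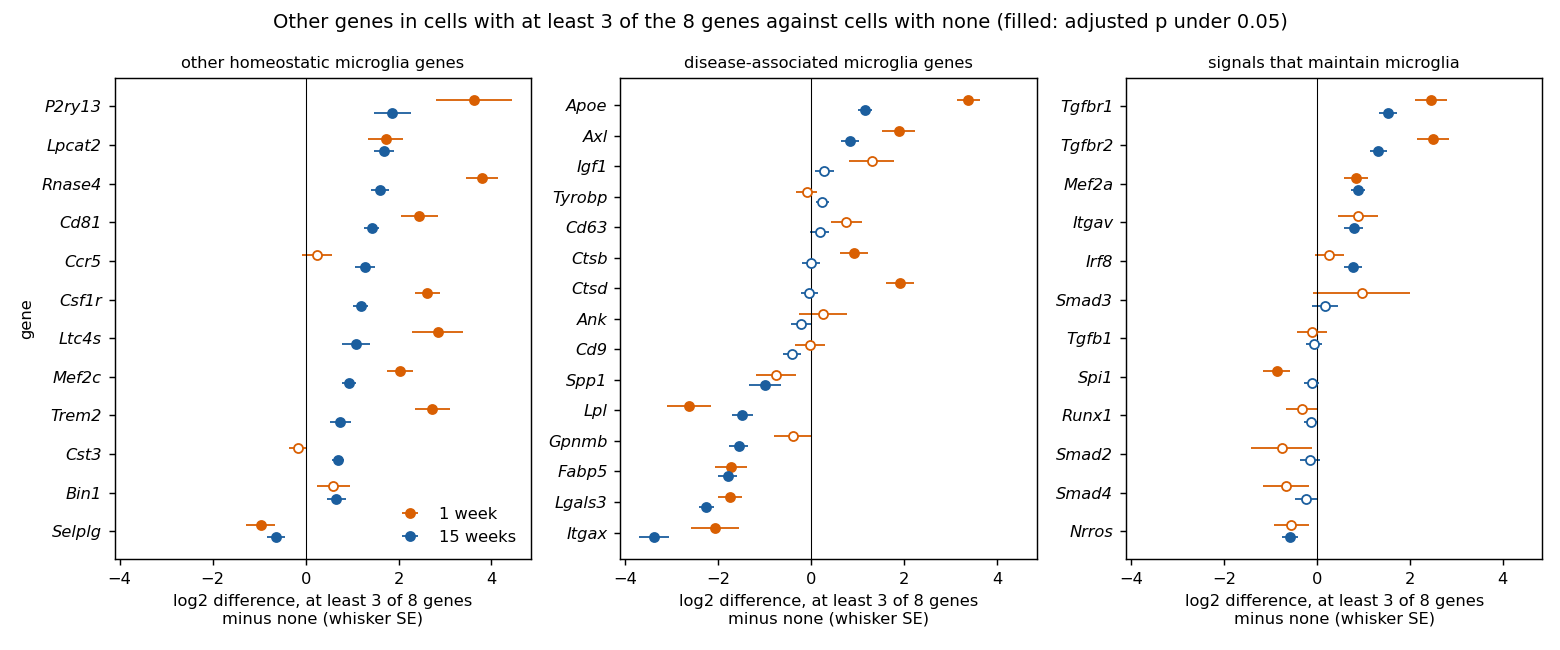
Log2 difference with SE (x axis) between cells with at least 3 of the 8 genes and cells with none, for genes (y axis) of the other homeostatic, disease-associated and maintaining-signal lists; orange is 1 week, blue 15 weeks, filled where the adjusted p was below 0.05. Most homeostatic genes lie to the right of 0 at both times, and Itgax, Lgals3 and Lpl lie to the left.

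Outside the lists, called genes were ranked by difference where their mean in the higher class passed a set minimum level. Those with the largest differences included the collagen gene Col14a1, at 210 CPM in cells with 3 or more of the genes and with no UMI in cells with none at 1 week, and at 134 and 18.2 CPM at 15 weeks (2.64, SE 0.321, adjusted p = 1.09e-08). At 1 week they also included the transporter Slco2b1 (167 and 3.13 CPM), the cyclooxygenase Ptgs1 (5.19), the integrin Itga6 (4.07) and the scavenger receptor Stab1 (3.36). At 15 weeks the TGF-beta-responsive gene Pmepa1 had the largest difference of the ranked genes called higher (352 and 34.7 CPM, 3.21), and it was higher by 3.26 at 1 week. Among the genes lower at 1 week, the macrophage elastase Mmp12, the signalling adaptor Traf1 and the lectin Clec4d had no UMI in cells with 3 or more of the genes and were at 442, 243 and 374 CPM in cells with none.

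Leiden clustering with these genes and the listed markers left out gave 19 clusters, described by number and leading genes. The share of cells with at least 3 of the 8 genes was highest in clusters of 15 weeks, at 53.3% in cluster 13 (led by Rad51b, Cd163 and Ppp1r9a), 47.3% in cluster 12 (Itga8, Negr1, Col14a1) and 46.9% in cluster 15 (Ccl12, St3gal6, Mgl2). Cluster 9, led by the interferon-responsive genes Ifit2, Ifi44 and Bst2, held 155 cells, 150 of them crush at 1 week and 149 of these from the male sample, with a share of 38.4% and mean levels of 909 CPM for Cx3cr1, 149 for Tmem119 and 144 for Olfml3. Cluster 4, led by Arg1, Spp1 and Pdpn, held 648 cells, 629 of them PSNL at 1 week, and none of its thinned cells had 3 of the genes. Cluster 18, led by Fgf13, Airn and Pparg, drew 496 of its 527 cells from crush at 15 weeks, 479 of them from the male sample, and had Olfml3 at 131 CPM and Cx3cr1 at 706 CPM.

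The genes also came apart between clusters. In cluster 17 (157 cells, led by Cd209f, Ednrb and Ccl8) P2ry12 was at 242 CPM, Gpr34 at 168, Siglech at 116 and Fcrls at 326, while Cx3cr1 was at 13.7 and Tmem119 at 0. Cluster 1 (203 cells, led by Retnla, Lyz1 and Ear2) had Fcrls at 764 CPM and Plxdc2 at 261 with Cx3cr1 at 33.9 and no UMI of Tmem119 or Olfml3. Cd209f and Ccl8 of cluster 17 and Retnla of cluster 1 are on the epineurial list. So is Cd163, a leading gene of cluster 13, which had the highest share of cells with at least 3 of the genes (53.3%). The members were thus not confined to cells without epineurial markers. In cluster 16 (342 cells, 330 from crush at 15 weeks and 327 of these from the male sample, led by Mfge8, Gdf15 and Fabp4) Olfml3 was at 113 CPM and Siglech at 0.257. Cx3cr1 and Tmem119 were found together 2.73 times as often at 1 week and 1.49 times as often at 15 weeks as separate shares would give.

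Over the 13 samples, the Pearson correlation of each gene with the mean of the other 7 was 0.937 for P2ry12, 0.936 for Cx3cr1, 0.917 for Plxdc2, 0.875 for Gpr34, 0.742 for Siglech, 0.724 for Fcrls, 0.632 for Olfml3 and 0.124 for Tmem119, given as a description of samples that share libraries and batches. The genes with the profile most like the mean of the 8 were Dock10 (r = 0.978), Ppcdc (0.971), Fkbp15 (0.970), Rfx7, Stard9, Mbnl1, Zfp810, Mlxip, Macf1 and Tmcc3 (0.959), which span 30.9 to 335 kb.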

How the data were processed

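The data were single-cell RNA counts from CD45+ CD11b+ cells of mouse sciatic nerve in 4 libraries with hashtag antibodies. The authors deposited UMI counts per gene and cell and per hashtag, made with Cell Ranger 6.0.0 and analysed with Seurat 5.1.0 on GRCm38 by the submitters' processing notes. The matrix headers name Cell Ranger 6.0.0 (1 week) and 7.0.0 (15 weeks). Whether intronic reads were counted is not given in the sources used here.

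Cells with at least 500 genes and at most 10% mitochondrial UMIs (7744 barcodes) were given to a sample where 1 hashtag lay above the valley of its log10 counts. Cells with several hashtags, 26.9% and 29.6% of the 1-week libraries and 1.89% and 5.78% of the 15-week libraries, were left out as doublets. Scrublet called 9 further doublets, too few to have worked, and the top 6% of its scores were removed as an alternative. Raw counts were summed per sample and tested with edgeR 4.0.16 (quasi-likelihood, TMM, filterByExpr, 13 samples in 5 groups, 8 residual degrees of freedom, Benjamini-Hochberg over 11535 genes, threshold 0.05), on R 4.3.3, after a check on simulated counts. CPM are counts scaled to a common total after TMM. Total counts per sample ran from 247765 to 15291150, so that values in sham rest on few UMIs. Cells were thinned to 2000 UMIs (1000 as an alternative), and classes of cells were compared in edgeR with the sample as a block. Clusters were made with scanpy 1.11.5 and leidenalg 0.10.2 on 1914 variable genes (30 components, 15 neighbours, resolution 1). Alternatives were DESeq2 1.42.0, HTODemux in Seurat 5.3.0, other filters, the library as a term, leaving out each sample and, chosen after seeing the data, leaving out the cells of the cluster led by Gm42418.

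The 8 genes and the gene lists were chosen with earlier results of these data known. Named genes were the 8, from each list at most 4 with the lowest adjusted p per comparison, the 10 most similar profiles and those with the largest differences between cell classes. One gene of the disease-associated list was not analysed here. For 2 genes of the homeostatic list, counted in that list's totals, no values are reported here. The 2 time points were separate batches, and no sham was sampled at 15 weeks.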

Additional observations from a re-analysis of the deposited data

Results flagged for a closer look

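For 6 of the 8 genes the PSNL minus crush difference at 15 weeks differed from the same difference at 1 week by the interaction term in edgeR. The change was 1.55 on the log2 scale for Cx3cr1, 2.50 for Gpr34, 2.56 for Fcrls, 2.10 for P2ry12, 3.75 for Siglech and 3.11 for Plxdc2, all towards higher levels in PSNL relative to crush at the later time. At 1 week both PSNL samples lay below both crush samples for these 6 genes, and at 15 weeks the samples of the 2 injuries overlapped for each of them. Time and batch, and injury and library, cannot be told apart in this term. Without the cells of the Gm42418-led cluster 4 of the 6 passed, all but Cx3cr1 and P2ry12. PSNL at 15 weeks was the one group with 4 samples, and in none of 9 measures (the levels of the 8 genes and the share of cells with at least 3 of them) did a sample stand apart from the others there. The groups of 2 or 3 samples were not looked at in this way, and in the group of 3 the crush male of 15 weeks differed from the females by 41.8 and 24.4 as chi-square per degree of freedom over gene counts, against 8.85 between the females.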

How the results depend on the processing

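The number of the 8 genes called in PSNL against sham at 1 week was 2 to 5 when 1 sample was left out and 2 without the Gm42418-led cluster, an alternative chosen after seeing the data. In crush against sham at 1 week it was 0 to 1 in such runs, 1 with HTODemux, with DESeq2 and with 200 genes and 25% mitochondrial UMIs as cell filters, and 2 with no filter on low counts. In PSNL against crush at 1 week it was 2 to 7 leaving out 1 sample and 0 with the library as a term, and in the PSNL minus crush difference between the times 1 to 7 leaving out 1 sample. Genes called between cells with 3 or more of the genes and with none were 332 and 433 (1 and 15 weeks) thinned to 1000 UMIs, 254 at 1 week without the Gm42418-led cluster, 219 and 356 within cells with a UMI of Csf1r or Adgre1, and 367 to 678 and 826 to 1196 leaving out 1 sample. The crush minus sham share of cells became -4.38 percentage points when at least 2 genes were asked for, and the PSNL minus sham share became 0.145 percentage points without the Gm42418-led cluster, where no sham cell had 3.

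Over all genes, DESeq2 called 851 after PSNL and 122 after crush relative to sham, and 8 between the injuries at 15 weeks, where edgeR called 617, 20 and 0. The looser cell filters gave 1014 and 54 in the first 2 comparisons, HTODemux 48 and DESeq2 size factors 6 in the second. In PSNL against crush at 1 week edgeR called 1413 genes, and 10 with the library as a term.

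Sign changes were limited to differences that had not been called. For Cx3cr1 in PSNL against sham at 1 week the log2 difference was -0.033 with DESeq2 size factors, -0.042 with DESeq2, -0.0675 with the groups compared alone, -0.64 with the library as a term, -0.0271 without the top Scrublet scores and -0.0032 without S100a8 and S100a9 cells. For P2ry12 in crush against sham at 1 week it was -0.0086 with DESeq2, and with the library as a term 0.67 for Gpr34 in crush against sham at 1 week and 0.0178 for Siglech in crush against sham at 1 week. For Plxdc2 in PSNL against crush at 15 weeks it was -0.0028 with no filter on low counts and -0.0029 without the top Scrublet scores. Without the Gm42418-led cluster it was 2.28 for Gpr34 in crush against sham at 1 week, 2.62 for Siglech in crush against sham at 1 week, -0.0876 for Plxdc2 in crush against sham at 1 week and 0.0279 for Tmem119 in PSNL at 15 weeks against 1 week. Leaving out 1 sample gave ranges across 0 of -0.50 to 0.69 for Cx3cr1 in PSNL against sham at 1 week, -0.77 to 0.98 for P2ry12 in crush against sham at 1 week, -1.62 to 0.71 for Gpr34 in crush against sham at 1 week and -0.75 to 0.0619 for Siglech in crush against sham at 1 week. They were -0.12 to 0.21 for Plxdc2 in PSNL against crush at 15 weeks, -0.16 to 0.28 for Fcrls in PSNL against crush at 15 weeks, -0.84 to 0.0135 for Olfml3 in PSNL against crush at 15 weeks, -0.50 to 0.57 for Siglech in crush at 15 weeks against 1 week and -0.0496 to 1.29 for Olfml3 in the PSNL minus crush difference, 15 weeks minus 1 week. The cause of these changes was not tested. Of the other single-gene values 1333 kept direction and side of the threshold, 57 lost the call and 20 gained it. A replicate block at 15 weeks (F1, F2 and M1 of each injury) called 0 of the 8, the same as without it. Same-numbered samples correlated at 0.00298 (F1), 0.0741 (F2) and 0.302 (M1), against highest values with another number of 0.0724, 0.216 and -0.145. F1 and F2 thus did not match their own number best, whereas M1, the only male number there, did.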
